A study of Mus musculus with 22 samples.

Results

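Protocadherins are the largest group of the cadherin superfamily, single-pass membrane proteins with calcium-binding extracellular repeats that hold neighboring neurons, axons and dendrites together or keep them apart. All mouse genes with a symbol starting with Pcdh were taken, which gave 68 of the 23033 genes to which the count table could be matched. They comprised 14 Pcdha, 21 Pcdhb and 21 Pcdhg genes of the clustered group and 12 non-clustered genes. Pcdhb1 and Pcdhgb8, which the RefSeq annotation also lists, were not analysed here.

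RNA of hippocampus (HPC), cortex (Cx) and cerebellum (CRBM) of 8 mice was measured by CelSeq2, an RNA-seq protocol in which reverse transcription starts from the poly(A) tail and reads fall near the 3′ ends of transcripts. The study asked whether down-regulation of circTulp4, a circular RNA spliced from the Tulp4 gene and abundant in brain, changes the transcriptome of these regions. WT denotes the wild-type mice (mice m162, m164, m240 and m244) and CD the circTulp4-deficient mice (mice m118, m138, m190 and m242), in which CRISPR-Cas9 replaced the splice acceptor used for backsplicing. Per the study, this replacement lowered circTulp4 in the brain but did not abolish it. The 22 libraries were 3 WT and 4 CD hippocampi, 4 WT and 4 CD cortices, and 4 WT and 3 CD cerebella. Per the methods of the study, the CD line was kept on a C57BL/6 background, like the wild-type mice it was bred to, and descends from a single mosaic founder male, so that other changes carried by that founder cannot be told apart from the allele. The age and sex of the sequenced mice are not given in the sources used here.

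With 1 transcript per gene, libraries held between 2757684 and 8847478 counts, so that 5 cpm (counts scaled to the library total) stood for 13.8 to 44.2 counts. Marker genes followed the region labels. The summed level of 6 hippocampal markers was 1660 to 2418 cpm in hippocampi and at most 494 cpm elsewhere, that of 6 cortical markers was 868 to 1031 cpm in cortices and at most 385 cpm elsewhere, and that of 6 cerebellar markers was 4834 to 5776 cpm in cerebella and at most 66.6 cpm elsewhere. As a check of genotype, counts on the Tulp4 transcript whose first exon lies in circTulp4 were compared with those on the transcript that lacks this exon. The excess was 2.71 to 3.69 cpm in WT hippocampi and 0.42 to 0.57 cpm in 3 CD hippocampi, but 3.98 cpm in the library labelled CD hippocampus of mouse m118, which lay with the WT libraries and against its label. In the other regions every CD library was below every WT library, with 0.14 to 1.30 against 1.45 to 6.03 cpm in cortex and 0.60 to 2.62 against 3.12 to 13.7 cpm in cerebellum, and mouse m118 had 0.90 and 1.55 cpm there. These values rest on few counts. In cortex the closest libraries were those of CD mouse m190 with 8 counts (1.30 cpm) and WT mouse m244 with 4 counts (1.45 cpm). Choroid plexus markers summed to 1199 and 4145 cpm in the hippocampi of CD mice m138 and m190 and to 8211 cpm in that of WT mouse m244, where the other 4 hippocampi had 127 to 550 cpm. Counts of calls between regions and the main differences between genotypes that use hippocampi are given with and without them. Bulk tissue was measured, so fewer cells of a type and less RNA per cell cannot be told apart.

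The clustered genes lie side by side in 3 arrays on mouse chromosome 18. In the Pcdha and Pcdhg arrays, each gene contributes its own variable exon, which encodes the extracellular repeats, the transmembrane segment and part of the cytoplasmic tail, and splices to constant exons that all genes of the array share. Individual neurons switch on different combinations of promoters, with CTCF and cohesin taking part in the choice, and the resulting surface code lets dendrites of the same neuron recognize and avoid each other. Non-clustered protocadherins, among them the delta1 and delta2 subfamilies, are separate genes with their own regulation, which act in axon growth, cell sorting and synapse formation.

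The counts were taken at 3′ ends, so the first question was how far the rows of the table are separate measurements. The 68 genes had 148 transcript rows, of which 101 were distinct over the 22 libraries. Of all Pcdh rows, 47 (31.8%) repeated an earlier row exactly, and 66 were identical to at least 1 other. In the whole table, 39994 of 85964 rows (46.5%) repeated an earlier one.

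All 14 Pcdha genes had 1 row each, with 8 distinct rows among them. Pcdha2, Pcdha4, Pcdha6, Pcdha7, Pcdha8, Pcdha10 and Pcdhac1 had the same count in every library, 11460 in total. The other 7 Pcdha rows had totals of up to 11466, and the largest gap to the shared count in any library was 4 counts. All 14 annotated Pcdha transcripts have 4 exons and the same starts of the last 3. The 14 rows are therefore described as 1 Pcdha count.

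None of the 21 Pcdhg rows was an exact copy of another, yet their totals ran only from 49391 to 49439. Within a library, no Pcdhg row differed from the count they had in common by more than 9 counts, or 0.63% of the row. Small excesses over that count went with the annotated end of the last exon. The 9 genes annotated to the furthest end had 29 to 50 counts more than the shared total, and the 12 genes that end 1 to 10 bases earlier had 2 to 25 more. The Pcdhgb6 row was also identical to the rows of the predicted genes Gm37013 and Gm38666 and to 1 transcript row that was matched to no gene, so reads of these 3 symbols cannot be told apart. No member of either array can be measured on its own in this table, and Pcdhgc3 stands for the 21 Pcdhg rows in the values that follow.

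The 21 Pcdhb genes are different in structure. Each is a single-exon gene that encodes a complete receptor without the shared cytoplasmic tail, and each had its own row with its own counts. Their counts were low, with 5512 in total over all genes and libraries. Only Pcdhb5, Pcdhb7, Pcdhb9 and Pcdhb19 reached 5 cpm in at least 2 libraries. The other 17 had between 1 (Pcdhb8) and 392 (Pcdhb4) counts over the 22 libraries.

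The 12 non-clustered genes had 92 rows, 51 of them distinct and 41 repeating an earlier row, and their highest rows did not coincide. In all, 50 of the 68 members passed the filter of 5 cpm in at least 2 libraries, namely all Pcdha and Pcdhg genes, 4 Pcdhb genes and 11 non-clustered genes. Pcdh12, an endothelial protocadherin, did not pass. It had 62 counts in total, was at 0 in 6 libraries and reached at most 2.08 cpm.

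Regions were compared over all libraries with edgeR's quasi-likelihood test, and a gene was called at a false discovery rate (FDR, Benjamini-Hochberg over the 11133 genes tested) below 0.01 and a fold change above 2. Between hippocampus and cortex, 5 of the 50 members tested were called, against 8.42% of all genes tested. The 50 include the 14 Pcdha and 21 Pcdhg rows, which repeat nearly the same counts. Pcdh7, Pcdh11x and Pcdh18 were higher in cortex (4.38% of all genes were called in that direction), and Pcdh19 and Pcdh20 were higher in hippocampus (4.03% of all genes). All were non-clustered, and they were 5 of the 11 non-clustered genes tested. Pcdh11x among them passed the filter only through cortices, which favored its call.

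In cerebellum, 9 of the 50 members tested were lower than in hippocampus and 9 of the 50 were lower than in cortex. In either comparison, 0 were higher by edgeR, DESeq2 or limma voom. At an unadjusted p below 0.05 in edgeR, 0 were higher too, and 13 and 25 members were lower. Of the 25, 14 were the repeated Pcdha rows. At that p, 64.8% and 65.2% of all genes differed in either direction. Of all genes, 22.8% were called between hippocampus and cerebellum, 13.0% being higher in hippocampus and 9.77% in cerebellum. Between cortex and cerebellum, 22.6% were called, with 12.9% higher in cortex and 9.70% in cerebellum. Non-clustered genes gave 8 of the 9 calls in each comparison, or 8 of the 11 tested, and the remaining calls were Pcdhb7 and Pcdhb5. Pcdh11x, Pcdh15 and Pcdhb5 passed the filter only through cortices, where they were high, which favored their calls against cortex. They are counted in these calls, and Pcdh11x and Pcdh15 also in the medians that follow. The non-clustered calls without them were Pcdh7, Pcdh8, Pcdh10, Pcdh17 and Pcdh19 in both comparisons, Pcdh20 against hippocampus and Pcdh18 against cortex. The median log2 fold change of the 11 non-clustered genes was -1.79 from hippocampus to cerebellum and -2.07 from cortex to cerebellum, where the medians of all genes were 0.02 and 0.02. Without the library of mouse m118 whose Tulp4 counts went against its label, 5 and 8 members were called in the comparisons that use hippocampi, Pcdhb7 being the one lost. Without the 3 hippocampi high in choroid plexus markers, the counts were 5 and 9. The log2 fold changes of the members called with all libraries moved by at most 0.12 in the first case and 0.20 in the second. The 3 comparisons share libraries and are not independent. Levels of glial markers also varied between regions. The sum of 5 oligodendrocyte markers was 2292 to 4142 cpm in hippocampi, 766 to 1802 cpm in cortices and 1011 to 1686 cpm in cerebella, that of 4 astrocyte markers was 1053 to 1327, 463 to 711 and 797 to 1181 cpm, and that of 4 microglial markers was 157 to 187, 138.3 to 179 and 40.8 to 60.7 cpm in the same order. Their part in the protocadherin results was not tested.

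**Figure D1:**
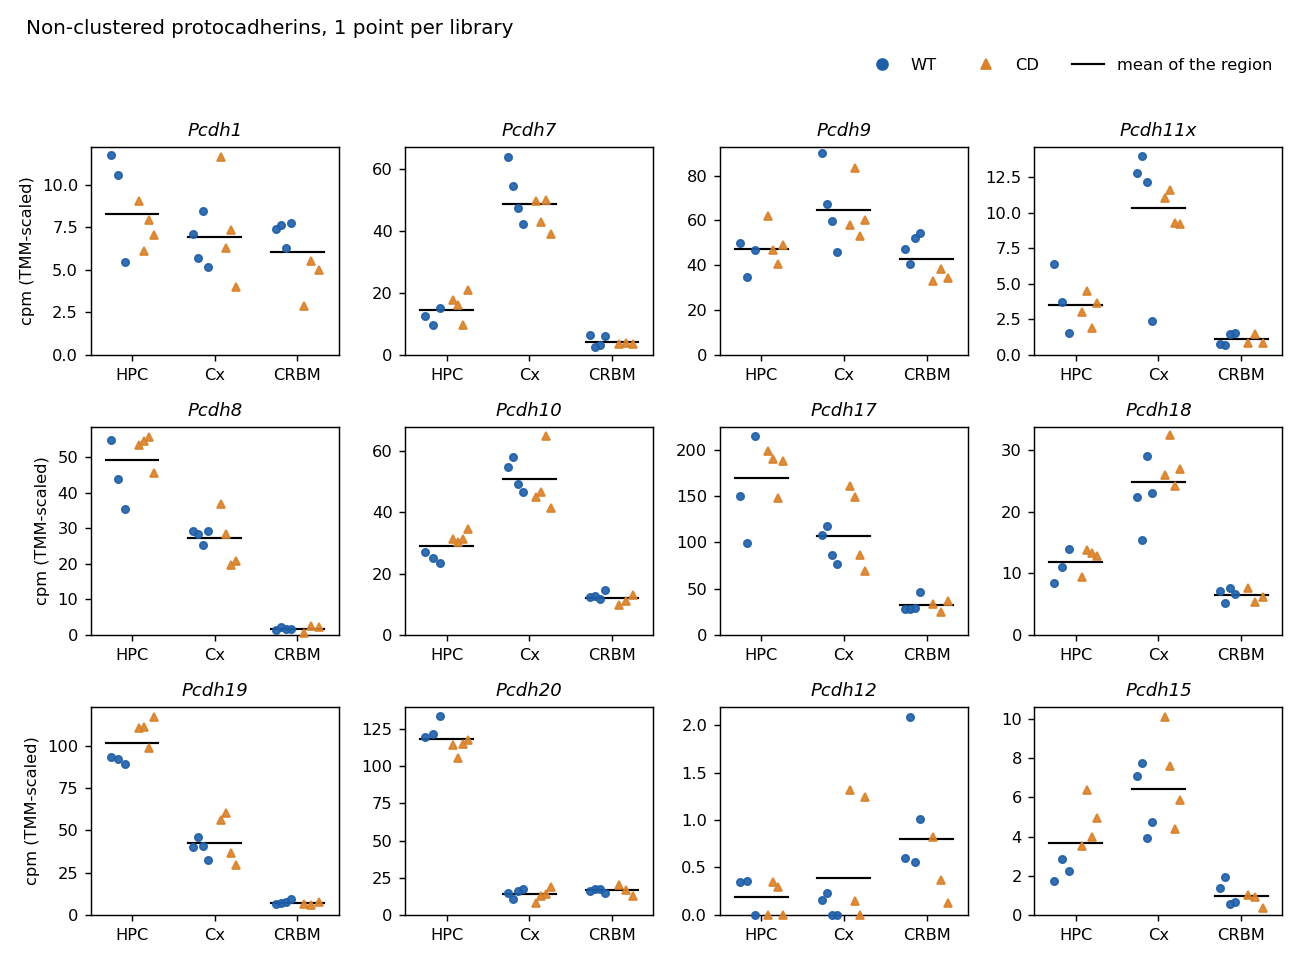
Levels of the 12 non-clustered protocadherins in TMM-scaled cpm (linear axes from 0) by region (HPC, hippocampus; Cx, cortex; CRBM, cerebellum), with 1 point per library (circles, WT; triangles, CD) and a line at the mean of the region. Pcdh8, Pcdh19 and Pcdh20 stand highest in hippocampus, Pcdh7, Pcdh10 and Pcdh18 highest in cortex, and cerebellar libraries lie at the bottom for all of these except Pcdh20, which is equally low in cortex.

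The plot of the non-clustered genes by library shows these patterns, and the genes are described by subfamily, starting with delta1. Levels are compared between regions only, never between genes.

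Pcdh7, a delta1 protocadherin whose tail binds protein phosphatase 1, spans chromosome 5 from 57716145 to 58133236 (mm10, plus strand). Its level had a minimum of 39.0, a median of 48.5 and a maximum of 64.1 cpm in the 8 cortices, 9.55, 15.0 and 20.9 cpm in the 7 hippocampi, and 2.61, 3.47 and 6.35 cpm in the 7 cerebella. The 3 regions did not overlap in any library. Cortex exceeded hippocampus by 1.79 on the log2 scale (3.45-fold; standard error 0.16, FDR = 1.49e-09 by edgeR), and cerebellum was below cortex with a log2 fold change of -3.57 (11.9-fold; standard error 0.19, FDR = 9.71e-15). Between hippocampus and cerebellum the log2 fold change was -1.79 (standard error 0.20, FDR = 2.04e-08).

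Pcdh11x, an X-linked delta1 protocadherin (chromosome X, 120290238 to 120910622, plus strand), followed the same order at low counts. Cortices had 2.38 to 14.0 cpm (median 11.3), hippocampi 1.54 to 6.40 cpm (median 3.67) and cerebella 0.69 to 1.52 cpm (median 0.87), the latter from 4 to 9 counts per library. Cortex and hippocampus overlapped through the cortex of WT mouse m244, the shallowest library, which had 6 counts (2.38 cpm) where the other 7 cortices had 9.21 cpm or more. The log2 fold changes were 1.54 for cortex over hippocampus (standard error 0.28, FDR = 7.45e-05 by edgeR), -1.73 for cerebellum against hippocampus and -3.27 for cerebellum against cortex (standard errors 0.37 and 0.34, FDR = 0.000232 and 4.72e-09). In WT libraries alone, the first comparison gave 1.47 with an FDR of 0.0341 and the second -1.80 with an FDR of 0.0163, neither past the threshold. Pcdh11x passed the filter only through the cortices, so that it was tested because it was high there. Elsewhere only the hippocampus of WT mouse m162 reached 5 cpm (6.40 cpm).

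Pcdh9 and Pcdh1, the other delta1 genes, were not called in any region comparison. Pcdh9 had means of 47.1 ± 8.45 (SD, n = 7), 64.8 ± 15.0 (SD, n = 8) and 42.8 ± 8.50 (SD, n = 7) cpm in hippocampus, cortex and cerebellum. Its log2 fold changes were 0.49 for cortex over hippocampus (95% interval 0.22 to 0.76, FDR = 0.00381 by edgeR) and -0.66 for cerebellum against cortex (-0.92 to -0.39, FDR = 0.000106), both under the fold threshold. Cerebellum and hippocampus differed by -0.17 (-0.44 to 0.11, FDR = 0.294). Pcdh1, best known from epithelia and endothelium, had means of 8.29 ± 2.32, 6.95 ± 2.34 and 6.06 ± 1.78 cpm in the same order, and overlapped between all regions.

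The delta2 genes Pcdh8, Pcdh10, Pcdh17, Pcdh18 and Pcdh19 were all called lower in cerebellum than in cortex, and all but Pcdh18, which fell short of the fold threshold, were called lower than in hippocampus. Between hippocampus and cortex they diverged, with 1 called in each direction. The longer cytoplasmic tails of several of them recruit the WAVE actin regulatory complex.

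Pcdh8, also called arcadlin, is induced by neuronal activity and draws N-cadherin from synapses (chromosome 14, 79766772 to 79771312, minus strand). Hippocampi had 35.4 to 55.7 cpm (median 53.4), cortices 19.5 to 36.7 cpm (median 28.3) and cerebella 0.61 to 2.57 cpm (median 1.69). Every forebrain library was thus far above every cerebellar one, while the lowest hippocampus, of WT mouse m244, and the highest cortex, of CD mouse m118, overlapped. Its fall from hippocampus to cerebellum was the steepest of any member tested, with a log2 fold change of -4.74 (26.8-fold; standard error 0.19, FDR = 6.74e-17 by edgeR), and it was -3.91 from cortex (standard error 0.19, FDR = 3.77e-15). From hippocampus to cortex the log2 fold change was -0.83 (95% interval -1.11 to -0.56, FDR = 1.61e-05), under the fold threshold.

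Pcdh19 is X-linked (chromosome X, 133582860 to 133689044, minus strand), binds N-cadherin, and its mutation causes an epilepsy that affects mostly females. Levels were 89.2 to 117 cpm (median 98.7) in hippocampi, 29.4 to 60.1 cpm (median 40.4) in cortices and 6.05 to 9.62 cpm (median 7.12) in cerebella. The regions formed 3 separate bands. The log2 fold changes were -1.23 for cortex against hippocampus (standard error 0.12, FDR = 6.37e-09 by edgeR), -3.80 for cerebellum against hippocampus (13.9-fold; standard error 0.15, FDR = 3.06e-17) and -2.57 for cerebellum against cortex (standard error 0.15, FDR = 5.35e-14).

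Pcdh17, a synaptic protocadherin that also promotes the outgrowth of amygdala axons (chromosome 14, 84443563 to 84537565, plus strand), had 99 to 215 cpm (median 188) in hippocampi, 69.2 to 161 cpm (median 97.1) in cortices and 24.2 to 45.9 cpm (median 29.2) in cerebella. Cerebella were separate from both other regions, and hippocampi and cortices overlapped. The log2 fold change was -2.38 for cerebellum against hippocampus (standard error 0.20, FDR = 9.95e-11 by edgeR) and -1.72 against cortex (standard error 0.19, FDR = 1.86e-08). From hippocampus to cortex it was -0.65 (95% interval -1.01 to -0.29, FDR = 0.00439), under the fold threshold.

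Pcdh10, which guides striatal and thalamic axons (chromosome 3, 45378398 to 45434579, plus strand), peaked in cortex. Cortices had 41.4 to 65.1 cpm (median 48.0), hippocampi 23.4 to 34.6 cpm (median 30.2) and cerebella 9.79 to 14.7 cpm (median 12.2). No libraries of different regions overlapped. The log2 fold changes were -2.07 for cerebellum against cortex (standard error 0.10, FDR = 5.63e-15 by edgeR) and -1.22 against hippocampus (standard error 0.11, FDR = 3.36e-10), and cortex exceeded hippocampus by 0.85 (95% interval 0.65 to 1.04, FDR = 1.03e-07), under the fold threshold. In WT libraries alone, cerebellum against hippocampus gave -0.97, also under it.

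Pcdh18, which interacts with the adaptor protein Dab1 of the reelin pathway (chromosome 3, 49743291 to 49757383, minus strand), had the same order. Cortices had 15.3 to 32.4 cpm (median 25.0), hippocampi 8.48 to 14.0 cpm (median 12.9) and cerebella 5.21 to 7.58 cpm (median 6.58). Again the 3 ranges were separate. Cortex exceeded hippocampus by 1.07 (standard error 0.14, FDR = 6.77e-07 by edgeR), just over the fold threshold, and by 0.99 without the hippocampus of WT mouse m162 or without the cortex of WT mouse m240. The log2 fold change for cerebellum was -1.94 against cortex (standard error 0.15, FDR = 2.06e-11) and -0.87 against hippocampus (95% interval -1.19 to -0.55, FDR = 3.08e-05), the latter under the fold threshold.

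Pcdh20, a compact non-clustered gene on chromosome 14 (88464743 to 88471396, minus strand), was high in hippocampus alone. Hippocampi had 106 to 133 cpm (median 117.7), cortices 7.87 to 18.9 cpm (median 14.5) and cerebella 12.7 to 20.4 cpm (median 16.7). The lowest hippocampus, at 106 cpm, lay above the highest library of any other region, at 20.4 cpm. The log2 fold changes were -3.07 for cortex against hippocampus (8.42-fold; standard error 0.13, FDR = 2.04e-15 by edgeR) and -2.86 for cerebellum against hippocampus (7.24-fold; standard error 0.13, FDR = 9.58e-16). Cortex and cerebellum did not separate, with a log2 difference of 0.22 (95% interval -0.07 to 0.50, FDR = 0.176).

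Pcdh15, a component of the tip link of hair cells (chromosome 10, 73096277 to 74649831, plus strand), was represented by a noncoding RefSeq transcript with 505 counts in total, and its best covered coding transcripts had 494 and 493. Cortices had 3.91 to 10.1 cpm (median 6.47), hippocampi 1.73 to 6.37 cpm (median 3.52) and cerebella 0.37 to 1.91 cpm (median 0.92). Cerebellar levels came from 3 to 11 counts per library. They were separate from those of cortex and overlapped with those of hippocampus. Pcdh15 passed the filter only through the cortices, so that it was tested because it was high there. Elsewhere only the hippocampus of CD mouse m138 reached 5 cpm (6.37 cpm). The log2 fold changes for cerebellum were -1.85 against hippocampus (standard error 0.32, FDR = 2.02e-05 by edgeR) and -2.80 against cortex (standard error 0.30, FDR = 9.87e-09), and the first became -1.01 (FDR = 0.0757) in WT libraries alone. Markers of oligodendrocyte precursors, a cell type that also expresses Pcdh15, had lower sums in cerebellum too. Both markers (Pdgfra and Cspg4) were detected, and their sum was 47.2 to 83.7 cpm in hippocampi, 30.9 to 71.0 cpm in cortices and 16.2 to 33.5 cpm in cerebella. The median sums in hippocampi and cortices were 56.7 and 53.3 cpm, where the medians of Pcdh15 were 3.52 and 6.47 cpm. The part of these markers in the result was not tested.

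Alternative transcripts of Pcdh7, Pcdh10, Pcdh17 and Pcdh19 were also lower in cerebellum than in cortex. Many of these rows hold nearly the same counts (6826 to 6915 in total for Pcdh19), so they are no independent support. Over rows with at least 300 counts, log2 ratios of mean cpm in cerebellum to cortex were taken after adding a small constant to each mean. They were -3.40 to -2.50 over 10 Pcdh7 rows, -2.71 to -1.76 over 4 Pcdh10 rows, -2.50 to -2.48 over 5 Pcdh19 rows and -1.83 to -0.76 over 4 Pcdh17 rows. The Pcdh17 value of -0.76 came from a row with 367 counts in total, and the constant moves such low rows most.

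**Figure D2:**
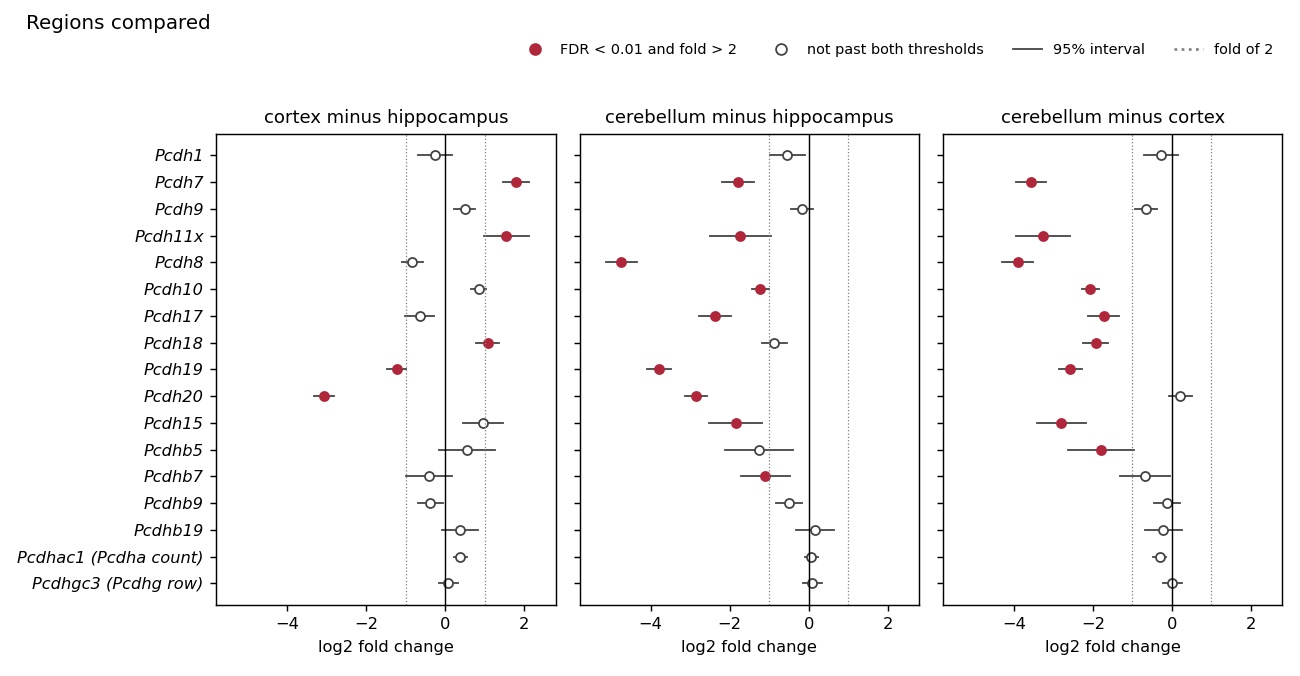
Log2 fold changes between regions with 95% intervals for the 15 members that can be told apart and passed the filter, for the Pcdha count shown by Pcdhac1 and for the Pcdhg row Pcdhgc3. Filled points passed an FDR below 0.01 and a fold above 2, and dotted lines mark a fold of 2. Against cerebellum all filled points lie to the left, and the points of the Pcdha and Pcdhg arrays lie close to 0 in all 3 panels.

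The Pcdha count had 68.7 to 86.0 cpm (median 80.7) in hippocampi, 91.2 to 123 cpm (median 99.5) in cortices and 72.8 to 93 cpm (median 82.2) in cerebella. All cortices were above all hippocampi, and cortex and cerebellum overlapped. Cortex exceeded hippocampus by 0.38 on the log2 scale (1.30-fold; 95% interval 0.22 to 0.54, FDR = 0.000369 by edgeR), and cerebellum was below cortex by a log2 fold change of -0.31 (95% interval -0.47 to -0.15, FDR = 0.00137), both under the fold threshold. Between hippocampus and cerebellum the difference was 0.07 (95% interval -0.10 to 0.24, FDR = 0.464).

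The Pcdhg array, whose loss makes dendrites of starburst and Purkinje cells cross themselves, had the flattest profile. Pcdhgc3 had 317 to 443 cpm (median 343) in hippocampi, 232 to 445 cpm (median 392) in cortices and 291 to 469 cpm (median 417) in cerebella. The 3 ranges overlapped broadly. The log2 differences were 0.07 for cortex over hippocampus (95% interval -0.16 to 0.31), 0.09 for cerebellum over hippocampus (-0.16 to 0.33) and 0.01 for cerebellum over cortex (-0.22 to 0.25), with FDR values of 0.656, 0.537 and 0.924 by edgeR. A change of 2-fold lies outside each of these intervals.

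**Figure D3:**
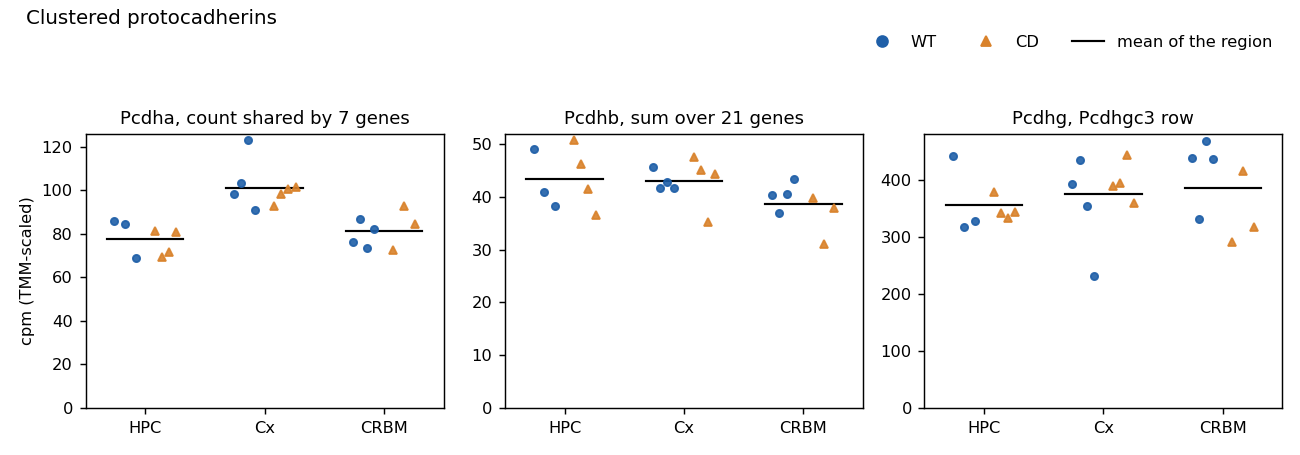
Levels of the 3 clustered arrays in TMM-scaled cpm (axes from 0) by region, with 1 point per library (circles, WT; triangles, CD) and a line at the mean of the region. The Pcdha count is highest in cortex, and the Pcdhb sum over 21 genes and the Pcdhg row overlap between all regions.

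Summed over the 21 genes, Pcdhb had 43.3 ± 5.43 (SD, n = 7) cpm in hippocampus, 43.0 ± 3.74 (SD, n = 8) in cortex and 38.6 ± 3.91 (SD, n = 7) in cerebellum, with overlapping ranges of 36.6 to 50.8, 35.2 to 47.6 and 31.0 to 43.4 cpm. Single Pcdhb genes varied more. Pcdhb7 had 3.36 to 7.80 cpm (median 4.52) in hippocampi, 1.95 to 6.0 cpm (median 3.59) in cortices and 1.10 to 4.05 cpm (median 2.48) in cerebella, and its log2 fold change from hippocampus to cerebellum was -1.10 (standard error 0.30, FDR = 0.00294 by edgeR). The groups overlapped, and the value was -0.98, under the fold threshold, without the hippocampus of mouse m118.

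Pcdhb5 had 1.14 to 5.95 cpm (median 2.31) in cortices, 1.03 to 3.36 cpm (median 2.26) in hippocampi and 0.37 to 1.39 cpm (median 1.02) in cerebella, the latter from 2 to 9 counts per library. Its log2 fold change from cortex to cerebellum was -1.80 (standard error 0.40, FDR = 0.000347 by edgeR), with overlapping groups. It passed the filter only through the cortices of CD mouse m242 and WT mouse m244, so that it was tested because it was high there. Pcdhb9 and Pcdhb19, the better covered Pcdhb genes, were not called, and their log2 differences between regions ran from -0.51 to 0.37.

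Expression also varied between animals within cortex. This pattern was chosen after the values had been seen and was not tested. The cortices of CD mice m118 and m138 had the highest Pcdh17 levels, 161 and 149 cpm, where the other 6 had 69.2 to 117.6 cpm, and the highest Pcdh19 levels, 56.2 and 60.1 cpm, where the other 6 had 29.4 to 46.2 cpm. Mouse m118 also had the highest Pcdh8 level (36.7 cpm) and the lowest Pcdh20 level (7.87 cpm). The cortex of CD mouse m242 was at the opposite end, with the lowest Pcdh17 (69.2 cpm) and Pcdh19 (29.4 cpm) and the highest Pcdh20 (18.9 cpm). Both ends of the range therefore lay within the CD group.

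**Figure D4:**
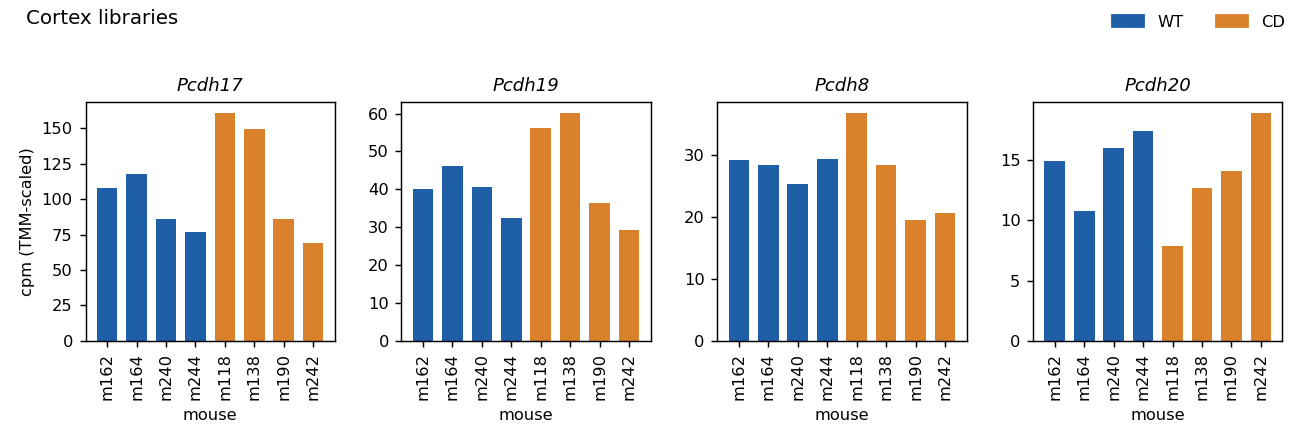
Levels of Pcdh17, Pcdh19, Pcdh8 and Pcdh20 in the 8 cortex libraries, as bars from 0 in TMM-scaled cpm, labelled by mouse. CD mice m118 and m138 have the highest Pcdh17 and Pcdh19, and CD mouse m242 has the lowest of both and the highest Pcdh20.

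CD and WT mice were then compared within each region. No member was called in hippocampus (0 of 47 tested), cortex (0 of 50) or cerebellum (0 of 45) by edgeR's quasi-likelihood test. In each region, 0% of all genes were called. The study itself reported a few transcripts past these thresholds in hippocampus and cortex, from fewer libraries per region than were compared here. At an unadjusted p below 0.05 there were 2 of 47, 0 of 50 and 3 of 45 members, where 4.22%, 3.32% and 4.55% of all genes tested were under it. DESeq2 and limma voom also called 0 members in each region. Limma voom with the mouse as a random block called 0 of 50 members, and 0% of all genes, over the 3 regions together, with 0 members at an unadjusted p below 0.05 (3.57% of all genes).

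In hippocampus, the smallest p belonged to Pcdh10. CD hippocampi had 31.2, 30.2, 31.3 and 34.6 cpm (mice m118, m138, m190 and m242) and WT hippocampi had 27.0, 25.2 and 23.4 cpm (mice m162, m240 and m244), so that the groups did not overlap. The log2 fold change was 0.34 (95% interval 0.07 to 0.61, unadjusted p = 0.0175 and FDR = 0.998 by edgeR). Without mouse m118 it was 0.35 (unadjusted p = 0.0223 by edgeR), and without the hippocampi high in choroid plexus markers it was 0.34 (unadjusted p = 0.0979 by edgeR). Pcdh19 was the other member under an unadjusted p of 0.05, with means of 109 cpm in CD and 91.4 cpm in WT hippocampi and a log2 fold change of 0.26 (95% interval 0.04 to 0.47, unadjusted p = 0.0229 by edgeR). Without mouse m118 this was 0.26 (unadjusted p = 0.0318 by edgeR), and without the hippocampi high in choroid plexus markers it was 0.30 (-0.03 to 0.64, unadjusted p = 0.0724 by edgeR).

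In cortex, the smallest p belonged to Pcdh18, with means of 27.3 cpm in CD and 22.4 cpm in WT cortices, overlapping groups and a log2 fold change of 0.28 (95% interval -0.11 to 0.67, unadjusted p = 0.146 by edgeR).

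In cerebellum, Pcdh9 had 33.0, 38.3 and 34.2 cpm in CD mice m118, m190 and m242 and 47.5, 40.7, 52.0 and 54.3 cpm in WT mice m162, m164, m240 and m244. Each CD library was below each WT library. The log2 fold change was -0.46 (95% interval -0.74 to -0.19, unadjusted p = 0.00325 and FDR = 0.981 by edgeR), and leaving out single libraries moved it between -0.54 and -0.41. Pcdh1 and Pcdhb19 were also under an unadjusted p of 0.05, with log2 fold changes of -0.69 (95% interval -1.25 to -0.13) and -0.65 (-1.30 to -0.01).

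For the arrays, the log2 differences between CD and WT were small and none was past a threshold. The Pcdha count differed by -0.07 in hippocampus (95% interval -0.33 to 0.18), by -0.09 in cortex (-0.33 to 0.16) and by 0.07 in cerebellum (-0.18 to 0.31). Pcdhgc3 differed by -0.05 (-0.32 to 0.22), 0.16 (-0.18 to 0.49) and -0.29 (-0.60 to 0.01) in the same order. In hippocampus the differences became -0.10 and -0.09 without mouse m118 and -0.07 and -0.06 without the libraries high in choroid plexus markers. In cerebellum DESeq2 placed 22 members under an unadjusted p of 0.05, with a smallest FDR of 0.795, and since the 21 Pcdhg rows hold nearly the same counts they cannot be read as separate genes.

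**Figure D5:**
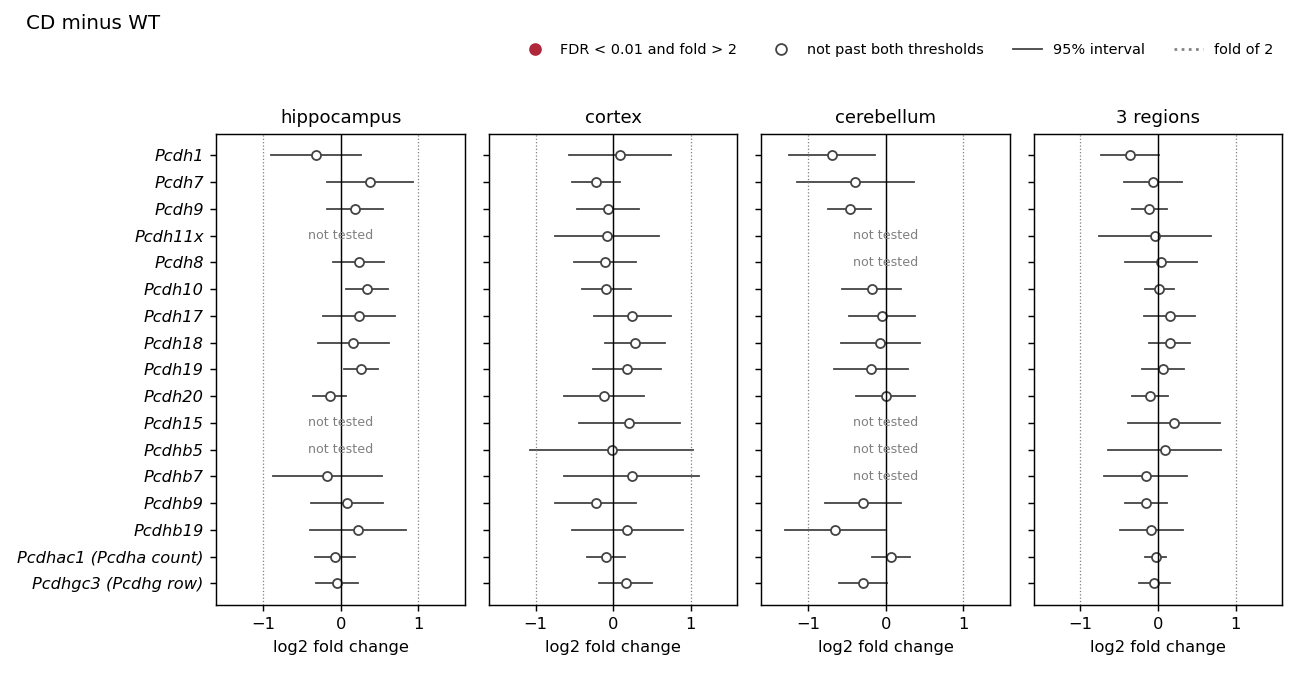
Log2 fold changes of CD against WT with 95% intervals in each region and over the 3 regions together, for the 15 members that can be told apart and passed the filter over all libraries, and for the Pcdha and Pcdhg arrays. No point passed an FDR below 0.01 and a fold above 2, and members under the filter of a region are marked as not tested.

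Over the 3 regions together, the smallest p belonged to Pcdh1, with a log2 fold change of -0.36 (95% interval -0.74 to 0.01, unadjusted p = 0.0568 and FDR = 0.9996 by limma voom). The test of whether the genotype difference varied between regions gave 0 members at an FDR below 0.05, as for 0% of all genes. At an unadjusted p below 0.05 it gave Pcdh10 and Pcdh15 (2 of 50 members, against 3.92% of all genes), with FDR values of 0.999 by edgeR, and with the mouse as a block it gave 0.

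Genes that process, transmit or regulate protocadherin signals were read for the same comparisons. Of 14 genes for partners of the cytoplasmic tail, the WAVE complex and kinases, all were tested and 0 were called between hippocampus and cortex by edgeR (9 at an unadjusted p below 0.05, against 43.5% of all genes), while in cerebellum 1 was higher and 4 were lower than in each of the other regions (5 of 14, against 22.8% and 22.6% of all genes called). Their median log2 fold change was -0.74 from hippocampus to cerebellum and -0.55 from cortex to cerebellum. Ptk2b, a focal adhesion kinase family member that binds clustered protocadherins, averaged 2325 cpm in hippocampus, 1313 cpm in cortex and 81.3 cpm in cerebellum, a log2 fold change of -4.85 from hippocampus to cerebellum (standard error 0.16, FDR = 1.10e-18 by edgeR). Ret, a receptor tyrosine kinase that associates with clustered protocadherins, went the opposite way, with 9.999, 12 and 116 cpm and a rise of 3.54 on the log2 scale from hippocampus to cerebellum (standard error 0.17, FDR = 1.50e-15).

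Of 8 genes for Adam10 and gamma-secretase, which cut protocadherins at the membrane, 4 were tested and 0 were called in any comparison by edgeR, although 2, 2 and 4 of them had an unadjusted p below 0.05 between hippocampus and cortex, hippocampus and cerebellum, and cortex and cerebellum (43.5%, 64.8% and 65.2% of all genes). Of 13 genes for CTCF, cohesin and silencing factors of promoter choice, 11 were tested and 0 were called in any comparison by edgeR, with 4, 8 and 8 at an unadjusted p below 0.05 in the same order. Their median log2 fold change from cortex to cerebellum was 0.73, where that of all genes was 0.02.

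Among 33 other cadherin superfamily genes, 22 were tested. In cortex 6 were higher and 1 was lower than in hippocampus, in cerebellum 8 were higher and 8 lower than in hippocampus, and in cerebellum 5 were higher and 6 lower than in cortex. Of all genes, 8.42%, 22.8% and 22.6% were called in these comparisons. Calls against cerebellum thus went in both directions. Fat2, a giant cadherin of cerebellar granule cells, averaged 0.28 cpm in hippocampus, 0.15 in cortex and 37.5 in cerebellum, a log2 fold change of 7.53 over cortex (standard error 0.29, FDR = 2.13e-17 by edgeR). Cdh9, which takes part in forming mossy fiber synapses of the hippocampus, averaged 4.99, 0.91 and 0.10 cpm, a log2 fold change of -5.18 from hippocampus to cerebellum (standard error 0.40, FDR = 1.33e-11). Fat2 passed the filter through the cerebella and Cdh9 through the hippocampi, so that both were tested because they were high there. Both count among the calls. Between genotypes, 0 genes of these 4 lists were called in any region by edgeR's quasi-likelihood test, as for 0% of all genes. At an unadjusted p below 0.05 there were 3 of 45 tested in hippocampus, 2 of 46 in cortex and 2 of 49 in cerebellum, where 4.22%, 3.32% and 4.55% of all genes were under it.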

How the data were processed

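The authors deposited raw counts per RefSeq transcript, made from reads that were aligned to mm10 with STAR (per the submitters' processing notes) and counted at 3′ ends with the End Sequence Analysis Toolkit. Tool versions, the RefSeq release, the treatment of molecular identifiers and that of shared reads are not given in the sources used here. Of 85964 rows, 69280 were matched by accession without version to genes of the RefSeq annotation of GRCm38, and the 16684 others were left out. Each gene was represented by its row with the highest total.

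Counts were scaled by TMM and compared by edgeR 4.0.16 (quasi-likelihood F test) in R 4.3.3, after a filter of 5 cpm in at least 2 of the libraries compared. The thresholds were an FDR below 0.01 and a fold change above 2, as in the study. Regions were compared over 22 libraries with 6 group means, genotypes within each region, and genotypes over the regions with limma 3.58.1 (voom, mouse as random block). DESeq2 1.42.0 and other settings were alternatives. Tables were handled in Python 3.11, and the tests were checked on simulated counts. Cpm values are TMM-scaled, except for the Tulp4 excess, which was scaled to the library total alone. Intervals are those of the fits.

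Regions are paired by the mouse names in the labels. Deviations of a mouse's libraries from their groups correlated little: on average at 0.083 between hippocampus and cortex (7 mice), at 0.047 between hippocampus and cerebellum (6 mice) and at -0.0037 between cerebellum and cortex (7 mice). Replicates are mice, and 5 cpm stood for 13.8 counts in the shallowest library, which limits precision for low genes.

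Members and lists (membrane cleavage, tail partners, promoter choice, other cadherins, cell markers) were chosen with earlier results of these data known. Values by library or range were given for members called between regions, genotype values for the smallest p, and list genes for the 2 largest changes per list.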

Additional observations from a re-analysis of the deposited data

Results flagged for a closer look

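In groups of 4 libraries, single libraries far from the others were looked for in 15 rows. They were the members called between regions, Pcdh1, Pcdh9, the Pcdha count shown by Pcdhac1 and the Pcdhg row Pcdhgc3. Of 60 groups examined, 2 held such a library, where chance gives 3.0. The cortex of WT mouse m244 had 2.38 cpm of Pcdh11x, where the other WT cortices had 12.2 to 14.0 cpm. It was the shallowest library, and without it cortex exceeded hippocampus by 1.68 on the log2 scale. The cerebellum of the same mouse had 45.9 cpm of Pcdh17, where the other WT cerebella had 27.8 to 29.2 cpm. Without it the log2 fold change from cortex to cerebellum was -1.83.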

How the results depend on the processing

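The comparisons kept their directions and counts under RLE size factors, DESeq2, limma voom, no filter, sums over distinct transcripts and identical rows counted once, with 5 or 6 members called between hippocampus and cortex, 8 to 10 between hippocampus and cerebellum and 8 to 10 between cortex and cerebellum. With an FDR below 0.05 and no fold threshold, 24 were called between hippocampus and cortex and 24 between cortex and cerebellum, of which 14 in each were the repeated Pcdha rows and 10 and 9 were non-clustered genes. In WT libraries alone, 5 were called between hippocampus and cerebellum, and the cause was not tested. Leaving out single libraries gave 4 to 6, 8 to 10 and 8 to 9 calls for the 3 pairs of regions and 0 to 0 for each comparison of genotypes. With the mouse as a replicate block, 5, 9 and 9 members were called, all of them also called without the block, and the block changed no other call. Pcdhb5 was not tested without either of the 2 cortices that carried it over the filter. No result changed direction. The exclusion of the hippocampi high in choroid plexus markers, and the values of Pcdh19 and the arrays without mouse m118, were chosen after seeing the data. Low counts limit the Pcdhb genes, Pcdh11x, Pcdh15 and Pcdh12, and no single Pcdha or Pcdhg gene can be resolved.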
